A study of Mus musculus with 89 samples.

Results

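The 7 genes described here are the immunoglobulin genes Igha, Jchain, Igkc, Iglc1, Iglv1 and Ighg2b and the gene of the IgA transporter, Pigr. They were selected by name, with earlier results of these data known, out of 27538 genes counted in clumps and 23379 genes counted in single cells of the mouse jejunum. Of the 7 genes, 6 were measured in both sets of wells, and Igkc was not analysed here. For the immunoglobulin genes the question was which wells carried their RNA and how these wells spread over plates, mice and sorting gates, and that account is a description. For Pigr the question was its level along the crypt-villus axis and across cell types, where sums per mouse were tested.

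The study sorted small pieces of incompletely dissociated epithelium (clumps) and single cells into multi-well plates and counted unique molecular identifiers (UMIs), a tally of captured RNA molecules, with the MARS-seq protocol for 3' ends. All samples came from wild-type C57BL/6 male mice on regular chow, 3 months old apart from 3 single cell plates labelled mouse 2, for which 4 months is given, and no sample received a treatment that others lacked. Clumps came from 45 plates: 27 of pairs of cells (the 4n gate of DNA content, mice 1 to 5), 14 of larger clumps (the gate above 4n, mice 1, 4 and 5) and 4 of the gate above 2n (mouse 6). Single cells came from 44 plates of mice 1 to 4, named for their gates as onlyEpcam, CD24, CD45Epcam, CD54Epcam, Epcam, EpcamLow_Cd24high and Epcam_Cd24low, and 10 plates had no gate in their names. The methods describe sorting for cells without CD45, the surface mark of blood cells, and with Epcam, the mark of epithelial cells. They add a gate with CD24 and without CD45 for enteroendocrine cells, and a gate with CD24 that left CD45 unselected, to take in tuft cells. The plate names do not say which of these a CD24 plate used. Whether a mouse number stands for the same animal in clumps and single cells is not given, so the 2 sets were never paired.

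IgA is the main antibody of gut secretions. Plasma cells of the lamina propria, the tissue beneath the epithelium, make it and join its units with the J chain, and the polymeric immunoglobulin receptor, the protein made from Pigr, carries the joined IgA across epithelial cells into the lumen. An antibody-producing cell as a rule makes 1 class of heavy chain and 1 kind of light chain, kappa or lambda, so the constant genes found together in a well describe the cell or cells it held.

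Among the members, Igha (heavy chain of IgA, chromosome 12, 113254830 to 113260236, minus strand) and Ighg2b (heavy chain of IgG2b, chromosome 12, 113302965 to 113307933, minus strand) are constant genes of the heavy chain locus. Iglc1 (chromosome 16, 19061618 to 19062071, minus strand) is a constant gene and Iglv1 (chromosome 16, 19085017 to 19085500, minus strand) a variable gene of the lambda light chain. Jchain lies on chromosome 5 (88519809 to 88527891, minus strand) and Pigr on chromosome 1 (130826684 to 130852249, plus strand). Positions are those of GRCm38 in GENCODE vM21. The last 60 coding bases before the stop codon are shown for Iglc1 and the related constant genes Iglc2 and Iglc3, because the wells below were split by Iglc1 and near-identical copies could share reads. Capitals mark bases that differ from Iglc1 at the same place, 13 of 60 in Iglc2 and 12 of 60 in Iglc3.
Iglc1 (chr16:19061755-19061814, minus strand): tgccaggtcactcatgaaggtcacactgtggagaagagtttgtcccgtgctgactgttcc
Iglc2 (chr16:19198539-19198598, minus strand): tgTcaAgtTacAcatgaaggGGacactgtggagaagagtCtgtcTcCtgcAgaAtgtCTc
Iglc3 (chr16:19065368-19065427, minus strand): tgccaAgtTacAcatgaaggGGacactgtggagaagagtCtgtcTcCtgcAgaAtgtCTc
Over their whole coding sequence Iglc2 and Iglc3 were 96.5% identical, so counts split between these copies are uncertain, while Iglc1 stood apart from both in the stretch shown.

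Plates held 94810 to 4153056 UMIs in clumps and 109338 to 2348338 in single cells. Of 17162 clump wells 6282 passed the filters on depth, genes and mitochondrial share, and of 16850 single wells 5199 did. The same set of well barcodes served every plate. Levels are given in CPM, the UMIs of a gene scaled so that all genes of a sum add up to 1e6. Immunoglobulin RNA was described over all wells, since the upper limits on single cells removed many of the wells that carried it. Intervals given for shares of wells are exact binomial and cover counting error only.

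Immunoglobulin RNA in single wells was concentrated in a small set of wells. The 5 measured immunoglobulin members summed to 222870 UMIs, of which Igha gave 156309, Jchain 36939, Iglc1 23788, Ighg2b 4020 and Iglv1 1814. Wells with at least 100 of these UMIs numbered 192 (1.14% of 16850, exact 95% interval 0.985 to 1.31) and held 91.0% of the total. The 50 richest wells held 49.4%, and the richest single well held 6826 UMIs of its 5 members. Inside the 192 wells the members made up between 2.27% and 62.7% of all UMIs, with a median of 24.6%. The limit of 100 was set after the data were seen: just inside it, the 31 wells with 100 or more but under 300 such UMIs had a median share of 16.1%, and just outside it, the 15 wells with 50 to 99 had a median share of 1.32%. The ranges overlapped, from 2.27% to 38.9% just inside and from 0.160% to 20.5% just outside, so the limit does not part the wells cleanly. A much larger number of wells held a trace, with a median share of 0.196% (highest 28.9%) in the 440 wells with 10 to 49 UMIs and 0.128% in the 4541 wells with 1 to 9.

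**Figure D1:**
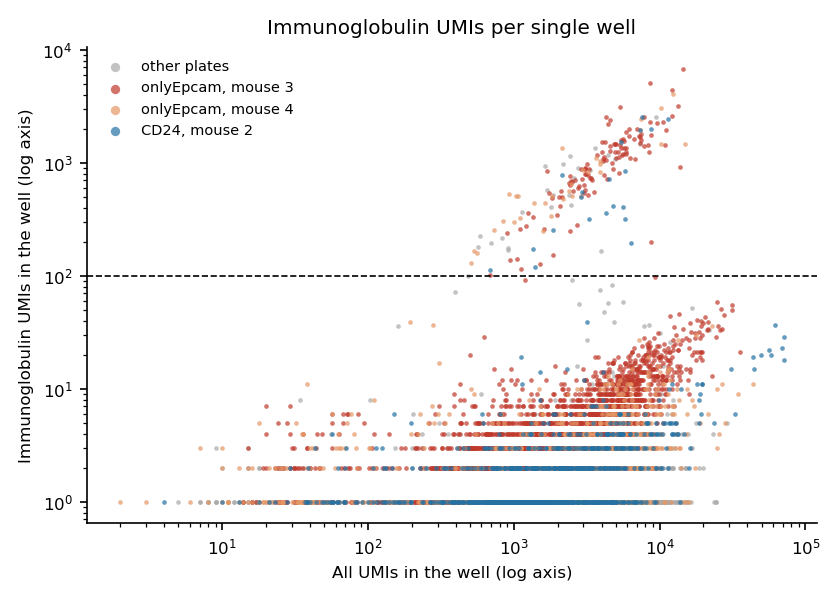
Each point is 1 single well with at least 1 UMI of the 5 measured immunoglobulin genes, with all its UMIs on the x axis and its immunoglobulin UMIs on the y axis, both on log scales, coloured by plate group, and the dashed line at 100 UMIs. Of the 192 wells above the line 115 come from onlyEpcam plates of mouse 3, with no gap between wells just above and just below it, while wells below the line hold more immunoglobulin UMIs where they hold more UMIs of any kind.

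The 192 wells carried genes of antibody-producing cells and less enterocyte and goblet cell RNA than the other wells. All 12 genes of a plasma cell list were higher there than in the other 16658 wells, summing to 4079 against 116 CPM. Mzb1, a chaperone of immunoglobulin assembly, stood at 740 against 2.95 CPM and was seen in 143 wells, and Xbp1, a transcription factor of secretory cells, stood at 979 against 42.7 CPM and was seen in 163. Xbp1, Prdm1, Sdc1, Txndc5 and Edem1 on this list are also used by epithelial cells. Of 9 B cell genes 7 were higher, Cd79a was seen in 82 wells, and Cr2 and Pax5 were at 0. None of 13 enterocyte genes was higher, and their sum was 963 against 13397 CPM. None of 12 goblet cell, 12 tuft cell or 10 Paneth cell genes, 1 of 13 immune genes and none of 5 erythroid genes was higher. Of 16 enteroendocrine genes 1 was higher, Gip, the gene of a gut hormone, with 1769 UMIs in 24 of the wells (2139 against 859 CPM), and it put the sum of that list at 2453 against 2059 CPM. Of 11 genes of stem and dividing cells 6 were higher, and their sum was 222 against 174 CPM. Of 6 myeloid genes 3 were higher (sum 55.6 against 310 CPM), and of 7 genes of stroma and vessels 1 was (14.5 against 9.37 CPM). Pigr itself stood at 110 against 1250 CPM, and Epcam, which the gates of these plates name or select on, at 56.8 against 584 CPM, with a UMI in 35 of the 192 wells. Ptprc, the gene of CD45, was at 49.6 against 54.1 CPM and was seen in 14.6% against 6.82% of wells. It was higher in the rich wells on CD54Epcam (129 against 4.69 CPM), CD45Epcam (30.4 against 2.23, in 1 rich well) and onlyEpcam plates of mouse 4 (104 against 46.0). On CD24 plates (74.1 against 273) and onlyEpcam plates of mouse 3 (23.5 against 77.8) it was lower. Of the 192 wells 147 passed the filters on single cells, 38 exceeded an upper limit on UMIs or genes, and the wells that passed held 60.1% of the immunoglobulin UMIs of the set. When cells were clustered without immunoglobulin genes, 140 of the 147 fell in a cluster of 468 cells, which was given no name. Its leading genes were haemoglobin genes, with Mzb1 among the first 10. The plasma, erythroid and myeloid lists each had 4 genes among its first 50, so the cluster was mixed. In the 147 wells the erythroid list summed to 35.9 CPM, against 3026 in the other wells that passed.

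The heavy chains split by class. Igha was the leading heavy chain in 184 of the 192 wells and held a median of 100% of the heavy chain constant UMIs in them, with a lowest value of 75%. Ighg2b led in 6 wells, 5 of them on CD24 plates of mouse 2 and 1 on an onlyEpcam plate of mouse 3. Ighm, the heavy chain of IgM, and Ighd, that of IgD, each led in 1 well. No well was led by Ighg1, Ighg2c or Ighg3.

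Jchain accompanied Igha in every well led by it. In the 182 wells led by Igha with at least 50 Igha UMIs (69 to 3129, median 632), Jchain reached at least 10 UMIs in all 182. Jchain per 100 Igha UMIs ran from 9.53 to 144, with a median of 22.6 and quartiles of 18.7 and 28.4. Over the 192 wells the Pearson correlation of Igha and Jchain UMIs was 0.68, where both counts also grow with the depth of the well. In 2 wells led by Igha with under 50 Igha UMIs the order was otherwise: 1 held 6 Igha and 256 Jchain UMIs, and the other held 43 Igha, 16 Jchain and 80 Iglc1 UMIs.

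The light chain rows divided the 182 wells into groups with none between. Iglc1 reached at least 10 per 100 Igha UMIs in 22 wells (12.1%, exact 95% interval 7.73 to 17.7) and stayed under 3 in the other 160, and 0 wells lay between these limits, which were set after the data were seen. The medians were 124 and 0.181 Iglc1 per 100 Igha UMIs. The 22 Iglc1-high wells came from mouse 2 (1 well), mouse 3 (15) and mouse 4 (6), and the 160 Iglc1-low wells from mice 1 to 4 (1, 15, 106 and 38). Iglv1 reached at least 10 UMIs in 19 of the 22 high wells and in 23 of the 160 low wells. Iglc2 and Iglc3 stayed low in both sets, with medians of 4 and 0 UMIs in the high wells and 2 and 1 in the low wells.

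A row that is no member, Gm43291, took the opposite pattern. It held 183012 UMIs in single wells, more than Igha, and 169 of the 172 wells with at least 100 of its UMIs were among the 192 wells. It was at 44.9 to 720 per 100 Igha UMIs in the 160 Iglc1-low wells, with a median of 125. In the 22 Iglc1-high wells its median was 1.18, and 19 of them stayed under 10. The remaining 3 Iglc1-high wells held both rows: Igha, Iglc1 and Gm43291 were at 1281, 343 and 1561 UMIs in the first, at 162, 31 and 236 in the second and at 69, 22 and 61 in the third. Kappa variable genes (Igkv) followed Gm43291. At least 5 Igkv UMIs were found in 115 of 160 Iglc1-low wells (71.9%) and in 2 of 22 Iglc1-high wells (9.09%). In the 83 Iglc1-low wells with at least 10 Igkv UMIs, 1 variable gene held a median of 80.8% of them, and 37 different genes led in 1 well or more, whereas the leading share expected from the summed wells was 7.98%. Gm43291 has no entry in the annotation used here, and the locus its reads come from was not determined. With Gm43291 added to the members, the median share of UMIs in the 192 wells was 49.5%.

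**Figure D2:**
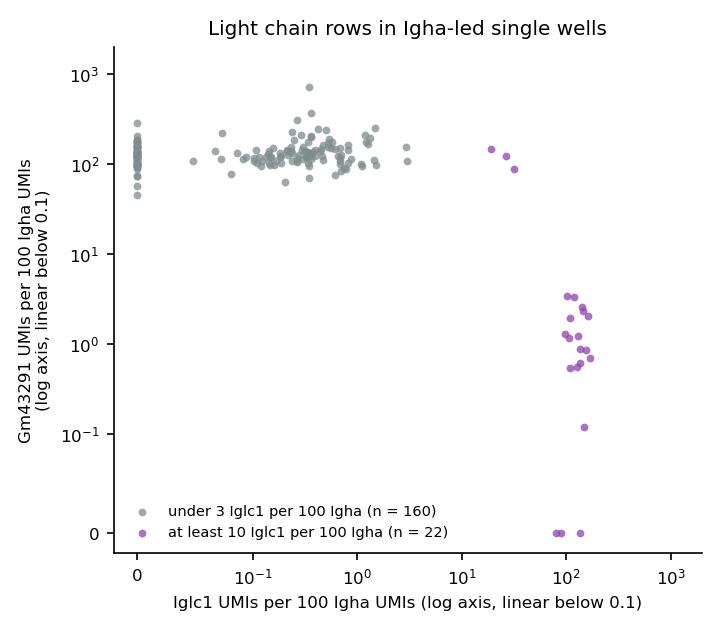
Each point is 1 of the 182 single wells led by Igha, with Iglc1 UMIs per 100 Igha UMIs on the x axis and Gm43291 UMIs per 100 Igha UMIs on the y axis, both on log scales that turn linear below 0.1. The 160 wells low in Iglc1 lie in a band at 44.9 or more Gm43291 per 100 Igha, 19 of the 22 wells high in Iglc1 lie under 10, and 3 lie high on both axes.

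Plates differed in how many such wells they held, by gate and mouse. The 7 onlyEpcam plates of mouse 3 held 115 of the 192 wells, 12 to 21 on each plate (4.28% of 2688 wells, exact 95% interval 3.54 to 5.11). The 7 onlyEpcam plates of mouse 4 held 33, 3 to 7 on each (1.23%, 0.847 to 1.72), so no plate of mouse 4 reached the lowest plate of mouse 3. The CD24 plates of mouse 2 held 20 (1.04%), 2 to 6 on each, the CD54Epcam plates of mouse 4 held 12 (1.04%), 3 to 5 on each, and the CD45Epcam plates of mouse 3 held 10 (0.868%), 2 to 4 on each. The EpcamLow_Cd24high plates of mouse 1 and the Epcam plates of mouse 2 held 1 well each. The Epcam_Cd24low plate of mouse 1 and the plates with no gate in their names held 0, where 0 of 1920 wells for mouse 1 and again for mouse 2 allows a share of up to 0.156% by the limit of 3 counts (exact 95% upper bound 0.192%). For the Epcam_Cd24low plate 0 of 343 wells allows up to 0.875% (upper bound 1.07%), which takes in the share on CD45Epcam plates. Its median was 8 UMIs per well, with 19 wells past the filters, so many wells could not reach 100 and the bound is too tight. Median depth was 1556.5 and 760 UMIs on onlyEpcam plates of mice 3 and 4 and 993.5 on CD24 plates. It was 376 on CD54Epcam, 3926.5 on CD45Epcam and 122 on EpcamLow_Cd24high plates. The shares at a fixed limit of 100 UMIs were not adjusted for depth. Within mouse 3, the share of such wells was 4.28% on onlyEpcam plates and 0.868% on CD45Epcam plates, and the plates of these gates did not overlap (12 to 21 against 2 to 4 wells). Within mouse 2, it was 1.04% on CD24 plates and 0.0434% on Epcam plates, again with no overlap between plates (2 to 6 against 0 to 1). Within mouse 4 it was 1.23% on onlyEpcam and 1.04% on CD54Epcam plates, with overlapping plates. Plates of 1 mouse are not independent animals, and no test was made. Apart from onlyEpcam and the plates with no gate in their names, each gate name was found in 1 mouse, so differences between gates set in different mice cannot be told apart from differences between mice. The name CD54Epcam was kept as labelled, although the methods name CD45 and not CD54.

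**Figure D3:**
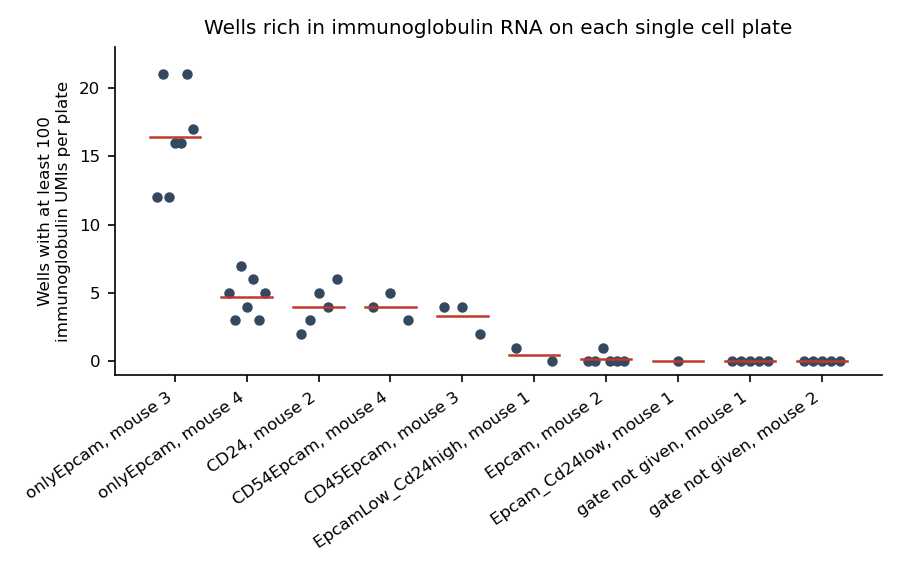
Each point is 1 single cell plate, placed by its gate and mouse, with the number of wells holding at least 100 immunoglobulin UMIs on the y axis and the mean of the plates as a red line. The onlyEpcam plates of mouse 3 lie at 12 to 21 wells, 6 further groups of plates reach 1 to 7 at most, and the Epcam_Cd24low plate of mouse 1 and the plates with no gate in their names lie at 0.

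Wells with under 100 immunoglobulin UMIs also held a trace, which was at 240 to 1686 CPM on plates of the 5 sets of gate and mouse with at least 10 rich wells. It was at 1.49 and 2.94 CPM on plates with no gate in their names and at 5.18 on Epcam plates of mouse 2. The EpcamLow_Cd24high plates, with 1 rich well, were at 383 CPM, and the Epcam_Cd24low plate, with none, was at 567 CPM, from 62 UMIs in 8 of its 343 wells. On the onlyEpcam, CD24, CD45Epcam and CD54Epcam plates, wells with under 100 immunoglobulin UMIs held 8.24% to 13.0% of the immunoglobulin UMIs of their gate and mouse. On the onlyEpcam plates of mouse 3, 86.0% of all wells had at least 1 such UMI, and among wells with under 100 the median was 0 in wells of up to 200 UMIs of any kind, 1 in wells of 200 to 1000 and 14 in wells of over 7000. As a share of all UMIs the trace was higher in shallow wells, at 17497, 3184 and 1496 CPM in these same wells. The ratios of the other members to Igha in the trace and in the rich wells differed by gene and by set of plates. Jchain per 100 Igha UMIs was 24.3 in the rich wells and 23.9 in the other wells on the onlyEpcam plates of mouse 3, and 22.4 and 23.6 on those of mouse 4. On the CD24 plates of mouse 2, where 5 of the 6 Ighg2b-led wells lay, Ighg2b per 100 Igha UMIs was 27.0 in the rich wells and 26.2 in the others, against 0.650 and 0.557 on the onlyEpcam plates of mouse 3. Iglc1 per 100 Igha UMIs was lower in the trace than in the rich wells on onlyEpcam plates of mouse 3 (11.6 against 15.6), on those of mouse 4 (15.4 against 22.3) and on CD45Epcam plates of mouse 3 (10.6 against 31.7). It was higher in the trace on CD24 plates of mouse 2 (1.81 against 0.831) and on CD54Epcam plates of mouse 4 (10.7 against 9.51). Iglv1 was lower in the trace on all 5 of these sets of plates, at 0.0753 to 0.743 against 0.365 to 1.98 per 100 Igha UMIs. Gm43291 was at 78.9 in the trace against 123 in the rich wells on onlyEpcam plates of mouse 3.

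Immunoglobulin RNA was found in cells named for other types as well. Of enterocyte-like cells, 92.3% carried an Igha UMI on the onlyEpcam plates of mouse 3 (349 cells, median depth 3482 UMIs) and 57.5% on those of mouse 4 (449 cells, 3022 UMIs). The shares were 1.05% on the Epcam plates of mouse 2 (478 cells, 2470 UMIs) and 0.728% on the mouse 1 plates with no gate in their names (687 cells, 3082 UMIs). In CPM, immunoglobulin RNA in enterocyte-like cells was at 1714 and 619 in the first pair and at 4.61 and 2.60 in the second pair. Goblet-like cells on the onlyEpcam plates of mouse 3 stood at 2080 CPM and immune-like cells, led by Ccl5 and Gzma, at 3285, with 2 wells of at least 100 immunoglobulin UMIs among the 673 immune-like cells and none among the goblet-like. At the 4 well positions of lowest depth on the onlyEpcam plates of mouse 3, 10 of 28 wells held immunoglobulin UMIs, 26 in all, at a median depth of 19 UMIs. No expression by these types was read from the shares, and the part of free RNA in them was not tested. Igha did not pass the test between types: against enterocyte-like cells its log2 difference was -0.65 in goblet-like, -1.39 in tuft-like, -0.38 in enteroendocrine-like and 0.87 in immune-like cells (edgeR quasi-likelihood test, Benjamini-Hochberg adjusted p = 0.747, 0.504, 0.827 and 0.531). Without wells of at least 100 immunoglobulin UMIs these differences were -0.47, -1.21, -0.97 and 0.42. Leaving out 2 such wells took Igha in enteroendocrine-like cells of mouse 2 from 1146 to 387 CPM, and leaving out 1 took it in immune-like cells of mouse 4 from 1451 to 585 CPM.

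In clumps, immunoglobulin RNA was scarce and a single well held most of it. The members summed to 2049 UMIs, of which Igha gave 1533, Jchain 417, Iglc1 47, Ighg2b 44 and Iglv1 8, in 171 of 17162 wells (0.996%). The richest well, a pair of mouse 3, held 1033 Igha and 246 Jchain UMIs among 4230 and thus 62.6% of all immunoglobulin UMIs in clumps. It also held 1811 UMIs of Gm43291 and 4 of Pigr. The next, a pair of mouse 2, held 189 Igha, 22 Jchain and 10 Ighg2b UMIs among 1957. Only 9 wells reached 10 immunoglobulin UMIs, all of them pairs of mice 1 to 3, and 9 of 11 plasma cell genes were higher in them than in the other clumps (sum 3179 against 239 CPM). Of 13 immune genes 4 were higher as well (sum 2051 against 33.8 CPM), mostly from Cd52, a surface protein of lymphocytes, with 13 UMIs in 5 wells, and Ccl5, a T cell chemokine, with 5 UMIs in 1 well. Of 8 B cell genes 2 were higher (sum 410 against 5.38 CPM). The part of other immune cells in these wells was not tested. The gates held 80, 317, 1628, 0 and 1 such UMIs in pairs of mice 1 to 5, 6, 14 and 1 in larger clumps of mice 1, 4 and 5, and 2 in the clumps of mouse 6.

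The share of clumps with immunoglobulin RNA was compared between larger clumps and pairs after each clump was thinned to 500 UMIs. In pairs it was 0 of 477, 11 of 917, 23 of 1430 (1.61%), 0 of 418 and 0 of 52 in mice 1 to 5. In larger clumps it was 0 of 506, 0 of 1880 and 0 of 324 in mice 1, 4 and 5, which allows shares of up to 0.593%, 0.160% and 0.926%. The 2 pairs groups with such clumps were mice that gave no larger clumps. The mean was 0.562% ± 0.782 (SD, n = 5 mice) in pairs and 0% in larger clumps (n = 3 mice), a difference of -0.562 percentage points that was within the spread between mice (exact permutation test, 2-sided, p = 0.464, smallest possible 0.0357). Before thinning the shares were 0.629%, 1.74%, 6.22%, 0% and 0% in pairs and 0.791%, 0.426% and 0.309% in larger clumps. Igha did not pass the filter on low counts in the fits over clump zones and gates, so it has no test there. In crypt clumps Igha was at 3, 196, 144, 10 and 0 UMIs in mice 1 to 5, in mid-villus clumps at 2, 5, 29, 0 and 0, and in villus tip clumps at 0, 1, 13, 0 and 0. The clump of mouse 2 with 189 Igha UMIs was among the crypt clumps, and the richest clump, of mouse 3, had no zone. Without clumps of at least 10 immunoglobulin UMIs, crypt clumps held 7 Igha UMIs in mouse 2 and 31 in mouse 3, or 8.01 and 9.73 CPM, against 6.16 and 12.0 CPM in mid-villus clumps of the same mice.

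Pigr was widespread, with 74448 UMIs in 7915 clump wells (46.1%) and 47997 UMIs in 6466 single wells. It was seen in 86.9% of clumps and 50.7% of single cells that passed the filters. In sums over both clump gates its level in CPM was highest in the mid-villus in all 5 mice, though not within each gate. Zones were set from 70 landmark genes, which do not include Pigr. Differences in CPM in sums of many cells do not tell fewer expressing cells from less RNA per cell.

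In crypt clumps Pigr stood at 1388, 1789, 2234, 1903 and 1680 CPM in mice 1 to 5 (1799 ± 309, SD, n = 5). In mid-villus clumps it stood at 2605, 2910, 3233, 2412 and 1916 (2615 ± 499.9, SD, n = 5). In villus tip clumps it stood at 2320, 1537, 1621, 1060 and 905 (1489 ± 556, SD, n = 5). The mid-villus value exceeded the crypt value of the same mouse by 1.14 to 1.88 times in 5 of 5 mice and exceeded the tip value in 5 of 5, although the groups overlapped between mice. These sums pool pairs and larger clumps, whose mix differed between zones: of the clumps of mouse 4, 1783 of 2105 in the crypt and 53 of 115 in the mid-villus were larger. In pairs alone, the mid-villus value of mouse 4 was 1075 against 1094 in its crypt, and the mid-villus was highest in the other 4 mice. In larger clumps alone, the mid-villus value of mouse 1 was 2311 against 2872 at its tip (21 clumps), and the mid-villus was highest in mice 4 and 5. The log2 difference of mid-villus from crypt was 0.31 in pairs and 0.62 in larger clumps. In the pooled sums the tip was below the crypt in 4 of 5 mice, with mouse 1 the exception. Sums were then scaled by TMM, edgeR's trimmed mean of log ratios, which sets a typical gene near 0. With mice as independent samples, the log2 difference of mid-villus from crypt was 0.63 (SE 0.31, edgeR quasi-likelihood test, Benjamini-Hochberg adjusted p = 0.107), and 40.2% of 7325 genes tested were called. The difference of tip from mid-villus was -0.62 (SE 0.31, adjusted p = 0.195, 12.2% of genes called), and that of tip from crypt was 0.01 (95% interval -0.59 to 0.61, adjusted p = 0.978, 53.0% of genes called). Neither passed the threshold of 0.05. With the mouse as a block, which uses the zones of the same animal, mid-villus was higher than crypt by 0.61 (adjusted p = 0.0163, 54.5% of genes called) and tip lower than mid-villus by -0.63 (adjusted p = 0.0306, 26.6% called), while tip against crypt was -0.02 (adjusted p = 0.943). With shares of all genes as high as these, the calls do not set Pigr apart from the genes tested. The sign of tip against crypt depended on the scaling and was -0.25 with DESeq2 size factors and -0.29 in CPM without TMM.

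Single enterocyte-like cells gave the same order of zones, in mice that were not paired with those of the clumps. In mid-villus cells Pigr stood at 2023, 2235, 2389 and 3100 CPM in mice 1 to 4. In crypt cells it stood at 1936, 1966 and 2410 in mice 2 to 4, since mouse 1 had too few crypt cells to be summed. In villus tip cells it stood at 1023, 834, 1063 and 1455 in mice 1 to 4. Every tip value lay below every crypt and every mid-villus value, and mid-villus exceeded crypt by 1.15 to 1.29 times in 3 of 3 mice. On the TMM scale, tip against mid-villus was -0.57 (SE 0.22, edgeR adjusted p = 0.0563, 28.7% of 4449 genes called) and mid-villus against crypt was 0.51 (adjusted p = 0.117, 29.2% called). With the mouse number as a block both passed the threshold, at -0.59 (adjusted p = 6.8e-04, 37.7% called) and 0.42 (adjusted p = 0.0279, 36.5% called), but number 2 covers plates of 3 and 4 months and may not be a single animal. Tip against crypt was -0.06 (95% interval -0.51 to 0.40, adjusted p = 0.844, 57.3% called). Without TMM, tip against crypt was -0.99 (adjusted p = 0.00281, 52.4% called) and tip against mid-villus -1.17 (adjusted p = 0.00221, 34.5% called). That scaling also moved the median of all genes from 0.09 to -0.82 and from -0.03 to -0.65, and the split of calls in tip against crypt from 1248 higher and 1301 lower to 407 higher and 1924 lower. Igha in these cells had a log2 difference of -0.38 between tip and crypt (adjusted p = 0.827).

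Position was also read on a continuous scale, the share of tip landmarks among tip and crypt landmarks. In clumps the highest of 10 bins lay at neither end of the axis in all 5 mice, but not at the same place. It ran from 0.7 to 0.8 in mice 1, 2 and 3, from 0.5 to 0.6 in mouse 5 and from 0.2 to 0.3 in mouse 4. This bin was picked after the data were seen. The first, highest and last values were 1023, 2954 and 2649 CPM in mouse 1, 1302, 3053 and 2122 in mouse 2, 1623, 3652 and 1921 in mouse 3, 1770, 2676 and 843 in mouse 4 (10 clumps in its last bin) and 1629, 2189 and 1168 in mouse 5 (18 clumps in its highest bin). Single enterocyte-like cells had first, highest and last values of 1155 (12 cells), 2930 (18 cells) and 1251 in mouse 2, 1782, 2849 and 1496 in mouse 3 and 1805, 3470 (19 cells) and 1837 in mouse 4. In mouse 1 only the bins from 0.8 up held 5 cells or more, with 2546 in 20 cells from 0.8 to 0.9 and 1140 in the last bin. These profiles are descriptions. When zones were cut on this position, with the tip taken as all values above 0.5, tip against crypt became 0.75 in clumps (adjusted p = 0.00967, 55.0% of genes called) and 1.07 in single cells (adjusted p = 0.00172, 62.7% called) where the tip class takes in every bin above 0.5.

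**Figure D4:**
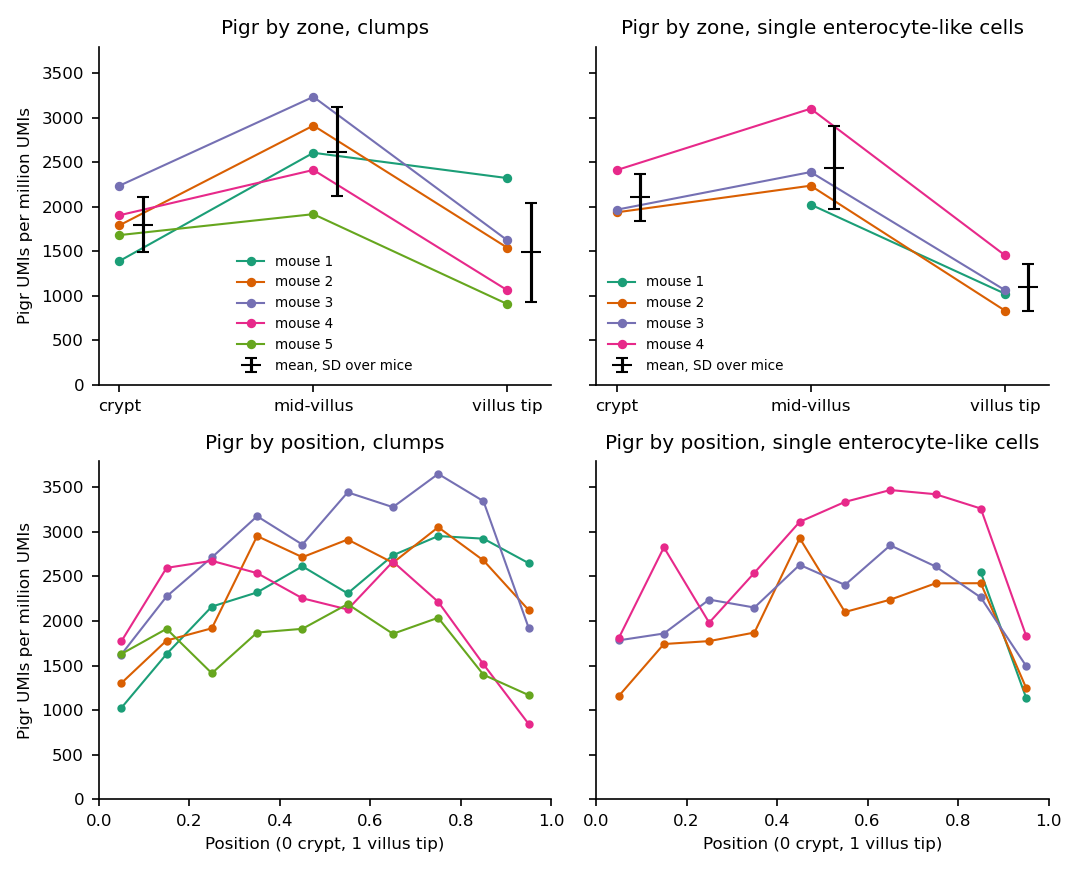
Pigr CPM by zone (top) and by position from 0 at the crypt to 1 at the villus tip (bottom), in clumps (left) and single enterocyte-like cells (right), with 1 line for each mouse and the mean and SD over mice in black. In clumps, pooled over gates, 5 of 5 mice are highest in the mid-villus (in pairs alone mouse 4, and in larger clumps alone mouse 1, are not), and in single cells the 4 tip values of 834 to 1455 lie below all others; mouse numbers of clumps and single cells may be different animals.

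Genes with the profile most like Pigr were sought over the 15 sums of mouse and zone in clumps, each gene centred within each mouse, among 2440 genes with a mean of at least 50 CPM. Prkg2, a cGMP-dependent protein kinase, had a Pearson correlation of 0.96 with Pigr, followed by the zinc transporter Slc39a5 at 0.91, the motor protein gene Kif5b at 0.89, the tight junction gene Cldn15 at 0.89 and the mitochondrial carrier Sfxn1 at 0.89. Prkg2 averaged 37.0, 101 and 33.2 CPM in crypt, mid-villus and tip, and Sfxn1 200.1, 356 and 90.0. These correlations share libraries and depth and are a description.

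Across cell types Pigr was highest in enterocyte-like cells. It stood at 1176, 1666, 1978 and 2265 CPM in enterocyte-like cells of mice 1 to 4 (1771 ± 466.3, SD, n = 4). Goblet-like cells, which make mucus, held 342, 333, 971 and 984 (657 ± 370, SD, n = 4). Enteroendocrine-like cells, which release hormones, held 113, 479, 426 and 755 (443 ± 263, SD, n = 4). The highest goblet-like value lay below the lowest enterocyte-like value, while goblet-like and enteroendocrine-like values overlapped. Tuft-like cells, chemosensory cells of the epithelium, held 243, 64.5 and 123 in mice 1 to 3, and immune-like cells held 85.8, 169 and 201 in mice 2 to 4. These lowest types overlapped with each other and with the enteroendocrine-like values. Some sums were small: the enteroendocrine-like value of mouse 1 rests on 3 Pigr UMIs and the tuft-like value of mouse 3 on 2. Types also came from different gates. In mouse 2, CD24 plates gave 187 of 218 enteroendocrine-like and 646 of 650 immune-like cells, and Epcam plates gave 478 of 540 enterocyte-like cells. Within gates of mouse 2, enterocyte-like and enteroendocrine-like cells stood at 869 (10 cells) and 451 CPM on CD24 plates. They stood at 1658 and 1017 (10 cells) on Epcam plates and at 1877 and 481 on plates with no gate named.

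All 4 types were lower in Pigr than enterocyte-like cells by edgeR's quasi-likelihood test with Benjamini-Hochberg adjustment. The log2 difference was -2.43 in goblet-like cells (SE 0.52, adjusted p = 6.7e-04, lower in 4 of 4 mice), where 22.5% of 4476 genes were called. It was -5.04 in tuft-like cells (SE 0.69, adjusted p = 9.9e-07, 3 of 3 mice, 26.4% of genes called), -6.03 without mouse 1 and -6.35 with types named by the highest marker sum. It was -3.58 in enteroendocrine-like cells (SE 0.56, adjusted p = 7.8e-06, 4 of 4 mice, 34.0% called) and -4.99 in immune-like cells (SE 0.67, adjusted p = 1.6e-07, 3 of 3 mice, 60.9% called), or -5.88 by marker sum. The sizes depended on scaling too. In CPM without TMM, the differences were -1.43 (adjusted p = 0.0797, no longer past the threshold) in goblet-like, -3.63 in tuft-like, -1.97 in enteroendocrine-like and -3.44 in immune-like cells, while the median of all genes moved from -0.32, -0.20, -0.06 and 0.00 to 0.41, 1.03, 1.30 and 1.52. Immune-like calls went from 1365 higher and 1363 lower to 2544 higher and 700 lower. Immune cells are not known to make Pigr, and immune-like cells held 85.8 to 201 CPM. The tuft-like values of mice 2 and 3 lay below 201, and that of mouse 1 had no immune-like sum of the same mouse beside it. It rests on 13 UMIs in 19 cells, and with types named by the highest marker sum on 3 UMIs in 16 cells (63.8 CPM). The part of free RNA in these values was not tested.

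**Figure D5:**
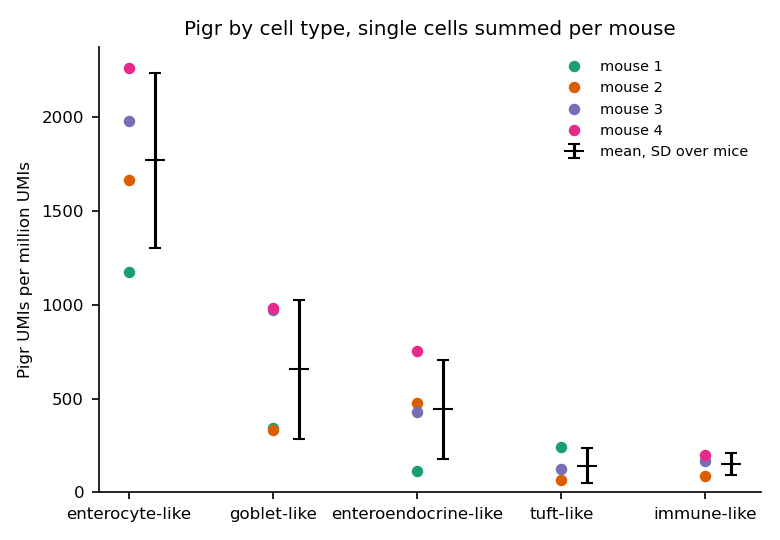
Pigr CPM in single cells summed by mouse and cell type, with 1 point for each mouse and the mean and SD over mice in black. The enterocyte-like values of 1176 to 2265 lie above all values of the other 4 types, and the tuft-like and immune-like values lie at 64.5 to 243.

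Other genes of the IgA route were read from lists of receptors and factors that induce Pigr, of vesicle transport across the cell and of signals for IgA-producing cells. Of 23 genes on the first list 18 were tested in clump zones, and 11 rose and 0 fell from crypt to villus tip, where 22.4% of all genes were called higher. Among them were Irf7, Relb, Il4ra, Tnfrsf1a, Il13ra1 and Stat3, and the list's median log2 difference was 0.91 against -0.14 for all genes. The log2 difference was 3.43 for Irf7 (an interferon-induced factor), 2.22 for Il4ra (a receptor chain for interleukin 4) and 2.04 for Tnfrsf1a (a receptor of tumour necrosis factor). With DESeq2 size factors 7 of these 18 rose, 0 fell, 16.9% of all genes were called higher, and the median of all genes was -0.46, where calls over all genes went from 1640 higher and 2240 lower to 1241 higher and 2695 lower. From crypt to mid-villus 7 rose and 0 fell, where 16.5% of all genes were called higher (5 and 0 with DESeq2 size factors, where 11.1% were), and from mid-villus to tip 4 rose and 0 fell, where 5.75% were, namely Irf7, Tnfrsf1a, Il4ra and Relb. For Pigr the log2 difference of tip from mid-villus in the same fit was -0.62 (edgeR quasi-likelihood test, Benjamini-Hochberg adjusted p = 0.195). A link between these genes and Pigr was not tested.

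The transport list held genes that rose and genes that fell. Of 20 genes tested, 6 rose from crypt to tip (Stx3, Rab11fip1, Rab5a, Rab5c, Rab11a and Myo5b) and 4 fell (Rab25, Exoc6, Exoc4 and Ap1m2), where 22.4% of all genes were called higher and 30.6% lower. With DESeq2 size factors 4 rose and 5 fell, where 16.9% of all genes were called higher and 36.8% lower. Stx3, a fusion protein of the apical membrane, was at 1.51 and Rab25, a regulator of apical recycling, at -1.94. From crypt to mid-villus 4 rose and 3 fell, where 16.5% of all genes were called higher and 23.6% lower (2 and 4 with DESeq2 size factors, where 11.1% and 29.7% were). From mid-villus to tip 0 of the list passed the test by edgeR, where 12.2% of all genes were called. In a list this short that count says little about these genes. Rab3d, a secretory vesicle regulator, fell from crypt to mid-villus (-1.33, adjusted p = 0.048) and was higher in goblet-like, tuft-like and enteroendocrine-like cells than in enterocyte-like cells. Myo5b, an apical transport motor, was lower in goblet-like, enteroendocrine-like and immune-like cells, though the goblet-like call was lost with DESeq2 size factors.

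Of 9 genes that attract or support IgA-producing cells 4 were tested in clump zones. Ccl28, a chemokine that draws IgA plasma cells, fell by 3.07 on the log2 scale from crypt to tip, and Ccl25, a chemokine of the small intestine, fell by 1.05. Tnfsf13b, the B cell survival factor BAFF, rose by 3.06. In this comparison 30.6% of all genes were called lower and 22.4% higher. Aldh1a1, an enzyme that makes retinoic acid, rose from crypt to mid-villus (2.66), where 16.5% of all genes were called higher, and fell from there to the tip (-2.93), where 6.47% were called lower, so it was high in the zone where Pigr was highest. Ccl25 and Aldh1a1 were lower than in enterocyte-like cells in all 4 other types, where 15.4% of all genes were called lower in goblet-like, 15.5% in tuft-like, 20.7% in enteroendocrine-like and 30.5% in immune-like cells. Fcgrt, the neonatal Fc receptor, which carries IgG, rose from crypt to mid-villus by 0.80 (edgeR adjusted p = 0.036).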

How the data were processed

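The authors deposited UMI counts per gene and well for clumps and for single cells, not normalized. Per the methods and processing notes, reads were demultiplexed with bcl2fastq 2.15.0.4 and mapped by zUMIs and STAR to GRCm38. Each plate was taken to its sample by title, and 0 columns of per-sample values were left out. Clumps were kept with at least 200 genes, over 500 UMIs and at most 30% mitochondrial UMIs, and single cells with UMIs from 200 up to 7000, genes from 150 up to 1500 and a mitochondrial share of 40% or less. No doublet caller was run. Zones came from 70 landmark genes (66 found), and the 2% of clumps with the lowest landmark share had none. Single cells were clustered without immunoglobulin genes and named from marker lists, so a difference from the study's own cell types may come from these names. The clumps of mouse 6 entered no comparison.

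Counts were summed per mouse and zone or type (at least 5 wells) and tested in edgeR 4.0.16 (R 4.3.3, TMM, filterByExpr, quasi-likelihood, Benjamini-Hochberg, threshold 0.05), after the code was checked on simulated data. DESeq2 1.42.0, other scalings, no filter, other depth limits, other zones, other cell names, single clump gates and leaving out each mouse were alternatives. In clumps the labels give each mouse a number, and zone sums of the same number deviated together (correlation 0.17 to 0.54, over 0.1 in 15 of 15 pairs), so fits with the mouse as a block are given where they change a call of Pigr. For the pathway lists blocked fits are not reported here. In single cells, number 2 covers plates labelled 3 and 4 months, and zone sums of the same number correlated at 0.093 to 0.53 (over 0.1 in 9 of 10 pairs), so the number may not pair them, and blocked values stand beside the unblocked ones. P-values measure the spread between mice. Tables were read with Python 3.11.15, pandas 2.3.3, SciPy 1.17.1 and scanpy 1.11.5.

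The members, the marker lists and the pathway lists were chosen with earlier results of these data known. The text names the 7 members, members of the pathway lists past the test (some are not reported here), the 5 genes most correlated with Pigr and whole marker lists. Gm43291, Iglc2, Iglc3 and the Igkv genes were added after their values were seen, as were the limit of 100 UMIs, the fits without TMM, the larger clumps alone, the fits without wells of at least 100 immunoglobulin UMIs and the alternatives for the mid-villus of single cells.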

Additional observations from a re-analysis of the deposited data

Results flagged for a closer look

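Outliers were sought over 25 groups of 4 to 10 values. Plates were compared within their gate and mouse, in immunoglobulin CPM and, in single cells, in wells with at least 100 such UMIs. Mice were compared in Pigr CPM by zone or type and in the share of pairs with immunoglobulin RNA. A value is listed where its gap to the next was large against the range of its group. All values listed were of plates, and no Pigr value was flagged. The rule flags about 1 in 20 groups by chance only where values are normally distributed. Many immunoglobulin values here were 0, and a group with 1 plate above 0 and the rest at 0 is always flagged. In pairs, plate 4 of mouse 1 was at 193 CPM (others 0 to 2.97), plate 7 of mouse 2 at 688 (others 0 to 84.4) and plate 3 of mouse 3 at 1040 (others 0 to 241), and plates 7 and 3 held the richest clumps of the report. Plate 3 of the larger clumps of mouse 5 was at 5.30 and plate 2 of the clumps of mouse 6 at 0.988, with the other plates of both at 0. These values rest on 1 UMI in mouse 5 and 2 UMIs in mouse 6. Among single cells, plate 8 of the Epcam gate of mouse 2 was at 957 CPM (others 0 to 8.29) and held 1 well with at least 100 immunoglobulin UMIs where the other plates held 0. Plate 15 of mouse 2, with no gate in its name, was at 17.7 (others 0 to 0.935).

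The row Gm43291, which is no member, held 183012 UMIs in single wells and 2592 in clumps, and its locus was not determined.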

How the results depend on the processing

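With the mouse as a replicate block, Pigr passed the threshold in mid-villus against crypt (0.61 in clumps) and in tip against mid-villus (-0.63), and tip against crypt in clumps was -0.02. In single cells the same numbers may not be the same animals, and with the number as a block mid-villus against crypt was 0.42 and tip against mid-villus -0.59, both past the threshold. The fits called 1623 and 1678 genes, against 1300 and 1277 without it, and the block changed no other call of Pigr, of Igha or of the share of clumps. Tip against crypt in clumps, 0.01 as reported, never passed the threshold except by position (0.75): it was -0.24 with DESeq2, -0.25 with its size factors, -0.07 with no filter, -0.29 without TMM, -0.09 in clumps over 1000 UMIs, -0.29 in pairs alone and -0.22 to 0.22 without single mice. In single cells it was 0.04 with no filter, 0.13 with at least 500 UMIs, -0.99 without TMM (past the threshold), 1.07 by position (past it) and -0.12 to 0.19 without single mice. Tip against mid-villus passed with DESeq2 (-0.62 in clumps and in single cells), and in single cells with its size factors (-0.61), without TMM (-1.17) and without mouse 1 (-0.64; range -0.64 to -0.50). By position it was 0.23 in clumps and 0.48 in single cells. Goblet-like against enterocyte-like lost its call without TMM (-1.43). The other 3 types kept direction and call under all 12 alternatives run for each, with sizes that moved by over 1.5 times for tuft-like cells (-6.35 with types named by the highest marker sum, -6.03 to -4.47 without single mice) and immune-like cells (-5.88 by marker sum), beside the fits without TMM. The share of clumps kept its sign in 9 of 10 alternatives, was -0.702 to -0.300 points without single mice and 0 in the 3 mice with both gates. The causes were not tested. Igha passed the low count filter in clumps only under some alternatives: with no filter its log2 difference was -2.33 for tip against crypt (edgeR adjusted p = 0.166), -2.84 for mid-villus against crypt (adjusted p = 0.0417, past the threshold, with 4 crypt clumps of at least 10 immunoglobulin UMIs, without which crypt was at 8.01 and 9.73 CPM in mice 2 and 3 and mid-villus at 6.16 and 12.0) and -6.66 for larger clumps against pairs (adjusted p = 0.374). The immunoglobulin values of clumps rest on few wells, since 2 of them held 73.4% of these UMIs.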
